A study of Homo sapiens with 14 samples.

Results

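The RNA level of 10 S100 genes was described in OVCAR4, an established high-grade serous ovarian cancer cell line, after siRNA knockdown of transcription factors. The members were the 10 rows, of 58219 in the deposited gene table, whose gene identifiers carry the symbols S100A2, S100A4, S100A6, S100A8, S100A9, S100A10, S100A11, S100A14, S100A16 and S100P. The rule takes genes by name and has no threshold on a measured value. The names were chosen with earlier results of these data known, so counts beside the share of all genes are description. All 14 libraries came from parental OVCAR4 cells with no engineered allele, and the series design names the comparison of control siRNAs with siPAX8, siSOX17, siDual, siMECOM and siWT1. Each of the 7 groups had 2 libraries: a stock ON-TARGETplus non-targeting pool (siNT1), a custom non-targeting pool (siNT2), 1 pool each for the transcription factors PAX8, SOX17, MECOM and WT1, and both the PAX8 and the SOX17 pool at once (siDual). In every group 300000 cells were reverse transfected with siRNA at 120 nM, fed 24 hours later and harvested at 72 hours. How the 120 nM was divided in siDual is not given in the sources used here. The labels do not say whether replicates were separate cultures, so p-values measure the spread between these libraries, which may be technical.

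S100 proteins are small calcium-binding proteins with paired EF-hand motifs that mostly work as dimers: on binding calcium, many expose a surface that docks a partner protein. S100A10 is the exception, since it does not respond to calcium and instead joins annexin A2 at the plasma membrane, where the complex binds plasminogen. S100A8 and S100A9 form calprotectin, abundant in neutrophils and induced in stressed epithelium, which sequesters zinc and manganese. Secreted S100 proteins can engage receptors such as AGER and TLR4. Most of the family lies in one cluster beside the epidermal differentiation genes on chromosome 1.

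In hg38 the cluster ran from S100A10 at chromosome 1, 151982915 to 151994390, through S100A11 at 152032506 to 152047907, S100A9 at 153357854 to 153361027 and S100A8 at 153390032 to 153391188. S100A6 (153534599 to 153536244), S100A4 (153543613 to 153550136), S100A2 (153561108 to 153567890), S100A16 (153606886 to 153613145) and S100A14 (153614255 to 153616986) followed. S100A9 lies on the plus strand and the other 8 members of the cluster on the minus strand. S100P alone lies elsewhere, on chromosome 4 at 6693069 to 6697170, plus strand. The span from S100A10 to S100A1, 1649 kb, held 19 S100 rows and 68 other annotated rows, and 0 of those 68 had enough counts to be tested, so every tested gene placed wholly within it was an S100 gene. Exons of 9 members overlapped no other gene's exons. S100A6 shared 23 bases, 2.4% of its exon length, with an antisense gene that had 2 counts over the control libraries.

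Promoter sequence was available for all 10 members in RefSeq (GRCh38.p14), as 14 windows of 300 bases that run from 250 before each start to 50 after it. The bases just before the start are shown for the 4 members with the letters TATAAA where a TATA box lies, and for S100A2, which had the AP-1 letters TGANTCA. Each run is the 60 bases that end at the base before the start, 5′ to 3′ on the gene's strand, with the matched letters in capitals.
S100A4 (chr1:153545807-153545866, minus): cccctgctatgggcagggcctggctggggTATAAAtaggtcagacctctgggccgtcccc
S100A8 (chr1:153391074-153391133, minus): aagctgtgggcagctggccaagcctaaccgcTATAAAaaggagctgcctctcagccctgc
S100A9 (chr1:153357794-153357853, plus): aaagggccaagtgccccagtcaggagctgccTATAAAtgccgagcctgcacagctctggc
S100P (chr4:6693818-6693877, plus): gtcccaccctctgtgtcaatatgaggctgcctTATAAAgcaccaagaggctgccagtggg
S100A2 (chr1:153565845-153565904, minus): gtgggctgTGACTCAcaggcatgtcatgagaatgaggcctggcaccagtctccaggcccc

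The TATAAA letters began 31 bases before the start in S100A4, 29 in S100A9 and in window 2 of S100A8, and 28 in S100P. S100A8 had 3 windows: in window 3 the letters began 126 bases before the start, and window 1 held none. A start between 35 and 25 bases upstream, a range chosen after these positions were seen, was found in 3.35% of all 27305 genes with a window and in 4 of 10 members. Anywhere in the window and on either strand, TATAAA was in 11.5% of all 35116 windows and TGANTCA in 7.71%. The letters TGANTCA were in 1 of the 14 member windows, 52 bases before an S100A2 start. The SOX core ATTGTT was in 10.1% of all windows and 0 of the 14. GGAATG, read by TEAD factors, was in 14% of all windows and in both S100A16 windows, and the C/EBP letters TTGCNNAA were in 10.5% and in the S100A11 window only. These matches describe letters, not occupied sites.

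Levels are counts scaled to library size (CPM) after TMM scaling, which corrects for composition, and the 4 non-targeting libraries served together as controls. Fold changes, standard errors (SE) and Benjamini-Hochberg adjusted p-values come from edgeR's quasi-likelihood test over 21032 genes, and "rose" or "fell" means an adjusted p under 0.05. Library totals ran from 40832825 to 49803860 counts. Mitochondrial transcripts took 5.34% to 6.13% of counts in controls and 7.91% to 11% in the knockdown libraries. Their part in the results was not tested. The fit without mitochondrial genes, which alters only the genes fitted and the scaling, kept every member call. PAX8 fell from between 192 and 225 CPM in the controls to 32.8 and 38.3 CPM in siPAX8 and to 52.8 and 50.6 CPM in siDual. SOX17 fell from between 104 and 119 CPM to 15.7 and 13.1 CPM in siSOX17 and 15.9 and 17.7 CPM in siDual, and MECOM from between 125 and 133 CPM to 8.76 and 16.4 CPM in siMECOM. WT1 was scarce before knockdown, at 0.33 to 0.43 CPM in controls, and was at 0 and 0.0191 CPM in siWT1, yet 7884 of the 21032 genes passed the test in siWT1. Targets also moved in groups not aimed at them. SOX17 rose in siMECOM (240 and 219 CPM) and MECOM fell in siSOX17 (45.6 and 43.6 CPM). PAX8 rose in siSOX17 (266 and 273 CPM) and fell in siWT1 (112 and 118 CPM).

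Per exon length (RPKM), the members spanned the whole range of expression in control cells. S100A11, an annexin A1 partner, was the highest member at 538 ± 39.1 RPKM (SD, n = 4) and ranked 63 of 21032 tested genes. S100A16, a broadly expressed member found at cell borders and in the nucleus, followed at 266 ± 9.8 RPKM. S100A14 (140 ± 10.6 RPKM) and S100A10 (129 ± 6.89 RPKM) came next, with a difference of about their SDs. S100A6, which binds CACYBP, was at 22.6 ± 0.916 RPKM, S100A4, which binds non-muscle myosin, at 12.7 ± 1.24 RPKM, S100A9 at 7.26 ± 1.3 RPKM and S100A2, a p53-linked squamous epithelial member, at 4.44 ± 0.0979 RPKM. S100P and S100A8 were barely detected, with 19 and 4 counts over the 4 control libraries together.

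The filter on low counts was met in all 14 libraries by 8 members, the well-counted ones. S100A8 reached its cutoff of 0.215 CPM only in siPAX8 replicate 2 and siDual replicate 2, and S100P only in the 2 siPAX8 libraries. Those 2 members were therefore admitted by the libraries where they were high, and counts over members are also given without them.

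**Figure D1:**
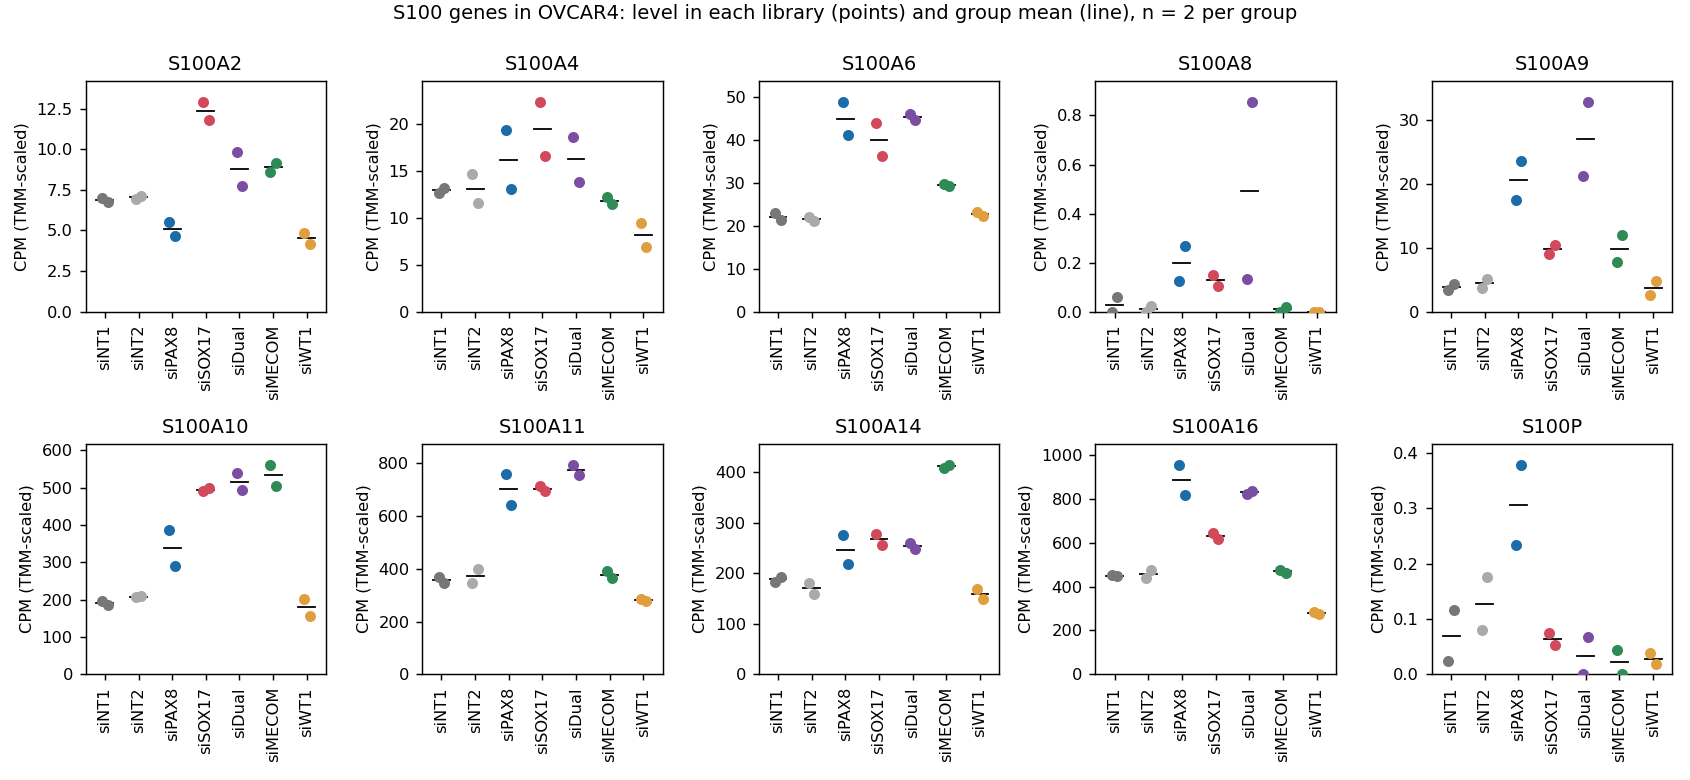
Level of each S100 gene in CPM (linear axes from 0, a scale per gene) for the 7 siRNA groups. Points are single libraries and lines are means of 2. S100A10 reached 561 CPM in siMECOM against at most 210 CPM in controls, S100A14 reached 415 CPM in siMECOM, and S100A16 reached 955 CPM in siPAX8.

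The control pools gave like levels of the members. Between siNT1 and siNT2, 0 of 10 members passed the edgeR test in either direction, 0 had an unadjusted p under 0.05, and 0 passed with DESeq2. Across all genes 0.242% passed as higher in siNT1 and 0.0571% as lower. The 8 members other than S100A8 and S100P differed between the control pools by log2 values from -0.17 to 0.14.

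Knockdown of PAX8, SOX17 or both was followed by higher RNA of most members. The summed level of the 10 genes was 1244 ± 36.3 CPM in controls (SD, n = 4), 2262 ± 294 CPM in siPAX8, 2177 ± 49.6 CPM in siSOX17 and 2472 ± 57.8 CPM in siDual (SD, n = 2 each). It was 1852 ± 61.0 CPM in siMECOM and 940 ± 54.2 CPM in siWT1, the only group below controls. S100A10, S100A11, S100A14 and S100A16 made up nearly all of each sum. In bulk RNA, a change in the number of cells expressing a gene and a change in RNA per cell cannot be told apart.

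With siPAX8, 8 of 10 members rose, against 26.9% of all tested genes, and 1 fell, against 25.4%. Without S100A8 and S100P the counts were 6 and 1 of 8. With siSOX17, 8 of 10 rose and 0 fell, against 27.2% and 25.5% of all genes, and all 8 were the well-counted members. With siDual, 8 of 10 rose and 0 fell, against 28.9% and 27.3%, and without S100A8 and S100P 7 of 8 rose. With siMECOM, 5 of 10 rose and 0 fell, against 16.5% and 16.1%. With siWT1, 0 of 10 rose and 4 fell, against 17.7% and 19.8%. Leaving out S100A8 and S100P, 5 of 8 rose and 0 fell in siMECOM, and 0 rose and 4 fell in siWT1. The median log2 fold change of the 10 members was 0.96 in siPAX8, 0.85 in siSOX17, 0.96 in siDual, 0.20 in siMECOM and -0.50 in siWT1, while the median of all genes was within 0.0099 of 0 in each. For the 8 well-counted members alone it was 0.85, 0.85, 0.96, 0.39 and -0.27. In every one of these calls both knockdown libraries lay beyond all 4 control libraries.

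**Figure D2:**
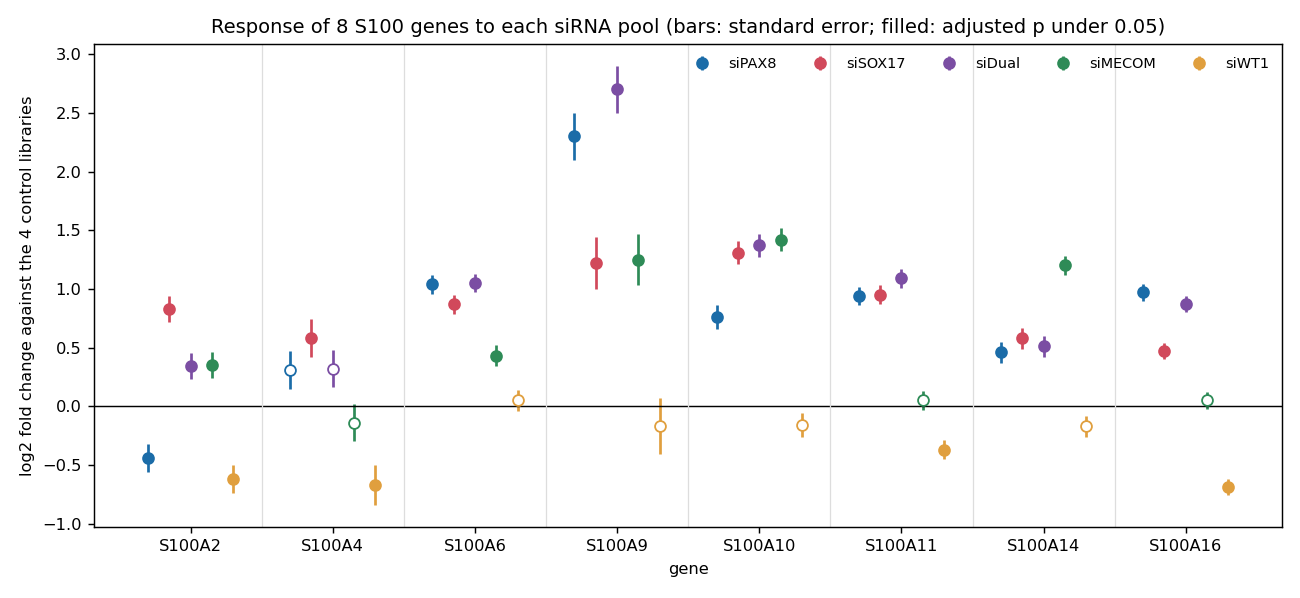
Log2 fold change against the 4 control libraries (points) with standard errors (bars) for the 8 well-counted members and the 5 knockdowns; filled points passed the adjusted p threshold. S100A9 had the highest values, 2.70 in siDual and 2.30 in siPAX8, S100A2 lay on opposite sides of 0 in siPAX8 and siSOX17, and S100A14 was highest in siMECOM.

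S100A10 read 197, 186, 206 and 210 CPM in the control libraries. It read 386 and 291 CPM in siPAX8, 491 and 498 in siSOX17, 539 and 492 in siDual, 561 and 504 in siMECOM, and 201 and 157 in siWT1. The siSOX17, siDual and siMECOM libraries formed one high range above both siPAX8 libraries, and of the siWT1 libraries 1 lay within the control range and 1 below it. By edgeR the rise was 2.67-fold in siMECOM (log2 1.42, SE 0.10, adjusted p 2.21e-09), 2.58-fold in siDual, 2.48-fold in siSOX17 (log2 1.31, SE 0.10, adjusted p 1.98e-09) and 1.70-fold in siPAX8. The siPAX8 rise was smaller than the siSOX17 rise (log2 difference -0.55, SE 0.12, adjusted p 0.00114 by edgeR), though only -0.36 without siPAX8 replicate 2. In siWT1 the log2 fold change was -0.16 (adjusted p 0.252).

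Annexin A2, the membrane partner of S100A10, was at 604 to 662 CPM in controls. It rose where S100A10 rose most, with log2 0.72 in siMECOM (SE 0.07, adjusted p 3.48e-07 by edgeR), 0.55 in siSOX17 and 0.44 in siDual. In siPAX8, where S100A10 rose, ANXA2 had a log2 fold change of -0.11 (adjusted p 0.251), and in siWT1 it fell by 0.48 on the log2 scale.

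S100A11 and S100A16, the most abundant members, had a common pattern. S100A11 read 345 to 401 CPM in controls, 760 and 643 in siPAX8, 714 and 695 in siSOX17, and 795 and 757 in siDual. It read 391 and 365 CPM in siMECOM, inside the control range, and 285 and 280 in siWT1, below it. The rises were 1.92-fold, 1.93-fold and 2.12-fold in siPAX8, siSOX17 and siDual (adjusted p at most 6.13e-09, edgeR), and the fall in siWT1 was 1.29-fold (adjusted p 0.00132). S100A16 read 437 to 476 CPM in controls, 955 and 819 in siPAX8, 642 and 616 in siSOX17, 823 and 834 in siDual, 475 and 463 in siMECOM, and 282 and 277 in siWT1. Here siPAX8 stood above siSOX17 without overlap. The log2 difference between these pools was 0.50 (SE 0.08, adjusted p 9.4e-05 by edgeR). S100A16 fell 1.62-fold in siWT1 (log2 -0.69, SE 0.07, adjusted p 6.18e-07), the lowest adjusted p of any member in that group.

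S100A14, an epithelial member next to S100A16 in the cluster, ranked the pools differently. It read 183, 193, 181 and 160 CPM in controls, 276 and 218 in siPAX8, 277 and 257 in siSOX17, 260 and 248 in siDual, 409 and 415 in siMECOM, and 170 and 149 in siWT1. The siMECOM libraries stood far above all others, and siWT1 overlapped the controls. The rise was 2.30-fold in siMECOM (log2 1.20, SE 0.08, adjusted p 2.49e-09 by edgeR) and 1.38- to 1.49-fold in siPAX8, siDual and siSOX17. Without siPAX8 replicate 1 the siPAX8 log2 value moved from 0.46 to 0.28 and still passed. In siMECOM the log2 fold change of its neighbour S100A16 was 0.05 (adjusted p 0.622).

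S100A9 had the largest fold changes among the well-counted members. It read 3.46, 4.4, 3.75 and 5.15 CPM in controls, 17.5 and 23.7 in siPAX8, 9.08 and 10.5 in siSOX17, 21.3 and 32.9 in siDual, 7.81 and 12.0 in siMECOM, and 2.69 and 4.75 in siWT1. All siPAX8 and siDual libraries lay above all siSOX17 and siMECOM libraries, which in turn lay above the controls. In every group replicate 2 was the higher library. By edgeR, S100A9 rose 6.48-fold in siDual (log2 2.70, SE 0.20, adjusted p 1.25e-09), 4.91-fold in siPAX8 (log2 2.30, SE 0.20, adjusted p 1.62e-08), 2.37-fold in siMECOM and 2.34-fold in siSOX17. The siPAX8 effect exceeded the siSOX17 effect by log2 1.07 (SE 0.24, adjusted p 0.00139).

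Its calprotectin partner S100A8 was seen in few reads. The raw counts were 0, 3, 0 and 1 in controls, 6 and 12 in siPAX8, 6 and 4 in siSOX17, 5 and 38 in siDual, 0 and 1 in siMECOM, and 0 and 0 in siWT1. The ratio to controls was 9.25 in siPAX8 (95% exact interval 3.05 to 37.6), 24.8 in siDual (9.0 to 95.0) and 6.06 in siSOX17 (1.75 to 26.5), with intervals that cover counting error only. The edgeR adjusted p was 0.012 in siPAX8, 0.00012 in siDual and 0.0654 in siSOX17. S100A8 entered the test through siPAX8 replicate 2 and siDual replicate 2, so its siPAX8 and siDual intervals and p-values are description, not support. Most siDual counts came from replicate 2, and without that library the siDual log2 value dropped from 4.59 to 2.66 (adjusted p 0.0745). In siPAX8 the log2 value was 3.22 and rose to 5.04 without siNT1 replicate 2, which held 3 of the 4 control counts, and the call was lost without siPAX8 replicate 2 (adjusted p 0.132) and against siNT1 alone (adjusted p 0.0698). In siSOX17 the log2 value moved from 2.61 to 4.44 without siNT1 replicate 2 and then passed (adjusted p 0.0346). In siMECOM, where S100A9 rose, S100A8 had 1 count, a ratio of 0.488 (0.00991 to 4.93).

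S100A8 and S100A9 are also myeloid genes, so myeloid markers were read beside them. Of 10 markers, 2 were tested: CD14, at 0.0746 to 0.421 CPM in all libraries, and CSF1R. TYROBP and FCN1 were at 0 in every control and siDual library and reached at most 0.0223 and 0.039 CPM in the other groups. The summed markers other than CSF1R ran from 0.481 to 0.606 CPM in controls and from 0.338 to 0.692 CPM in siDual. They ran from 0.616 to 0.646 CPM in siPAX8 and 0.638 to 0.701 CPM in siMECOM, both above the control range. In siSOX17 they ran from 0.373 to 0.504 CPM and in siWT1 from 0.572 to 0.594 CPM. CSF1R, a macrophage growth factor receptor that tumour epithelium can express, read 3.43 to 4.29 CPM in controls, 21.8 and 19.2 in siPAX8, 22.6 and 20.1 in siSOX17, 39.0 and 28.2 in siDual, 6.41 and 5.57 in siMECOM, and 0.438 and 0.517 in siWT1. The part of CSF1R in the S100A9 result was not tested. All 9 ovarian epithelial markers were present and tested, with sums of 4047 to 4842 CPM in controls and 18251 to 20878 CPM in siDual. The members went different ways there: KRT7, KRT8 and KRT18 rose by log2 1.73, 2.64 and 2.64 and MUC16 by 0.33, while MSLN fell by 1.19, CLDN3 by 0.95, WFDC2 by 0.88 and CLDN4 by 0.35. The 6 fibroblast markers summed to 34.9 to 45.1 CPM in controls, 66.6 to 70.6 in siPAX8, 61.1 to 66.1 in siSOX17, 75.8 to 83.8 in siDual, 25.3 to 26.8 in siMECOM and 25.6 to 27.8 in siWT1. COL1A1, at 34.0 to 44.2 CPM in controls, made up nearly all of the sum. In siMECOM COL1A1 fell by 0.62 on the log2 scale while PDGFRB, at 0.022 to 0.261 CPM in controls, rose by 2.15. The part of these markers in the member results was not tested.

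S100A6, also called calcyclin, rose with 4 pools. It read 21.1 to 23.1 CPM in controls, 48.9 and 41.1 in siPAX8, 44.0 and 36.3 in siSOX17, 46.2 and 44.6 in siDual, 29.8 and 29.3 in siMECOM, and 23.2 and 22.3 in siWT1. The siMECOM libraries lay between the controls and the PAX8 and SOX17 groups without overlap. The rises were 2.05-fold in siPAX8, 1.83-fold in siSOX17, 2.07-fold in siDual and 1.35-fold in siMECOM (log2 0.43, SE 0.09, adjusted p 0.000715 by edgeR).

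S100A4, known for its link to cell motility, passed the test in siSOX17 and siWT1. It read 11.6 to 14.7 CPM in controls, 19.4 and 13.1 in siPAX8, 22.4 and 16.6 in siSOX17, 18.7 and 13.9 in siDual, 12.2 and 11.5 in siMECOM, and 9.49 and 6.95 in siWT1. In each knockdown group replicate 1 was the higher library, and replicate 2 of siPAX8 and of siDual lay inside the control range. By edgeR S100A4 rose in siSOX17 (log2 0.58, SE 0.16, adjusted p 0.0048) and fell in siWT1 (log2 -0.67, SE 0.17, adjusted p 0.00413). In both groups the 2 libraries lay beyond all controls, but each call was lost when 1 of them was left out. The log2 value was 0.34 without siSOX17 replicate 1 and -0.46 without siWT1 replicate 2, fits that leave 1 library in the group.

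S100A2 moved in opposite directions after knockdown of PAX8 and of SOX17. It read 7, 6.74, 6.95 and 7.11 CPM in controls, 5.54 and 4.68 in siPAX8, 12.9 and 11.8 in siSOX17, 9.85 and 7.76 in siDual, 8.61 and 9.14 in siMECOM, and 4.82 and 4.19 in siWT1. Both siPAX8 libraries lay below every control and both siSOX17 libraries above, with siDual between siSOX17 and the controls. By edgeR S100A2 fell 1.36-fold in siPAX8 (log2 -0.44, SE 0.12, adjusted p 0.00439) and rose 1.78-fold in siSOX17 (log2 0.83, SE 0.11, adjusted p 3.05e-06). The difference between these pools was log2 -1.28 (SE 0.13, adjusted p 3.4e-07). S100A2 also rose in siDual (log2 0.34, adjusted p 0.0162) and siMECOM (log2 0.35, adjusted p 0.0201), and fell 1.54-fold in siWT1 (adjusted p 0.000424). The siPAX8 call was lost without siPAX8 replicate 2 (adjusted p 0.0981), and the siDual call without siDual replicate 1 (log2 0.16, adjusted p 0.374). The siMECOM call was lost without either siMECOM library or without replicate 2 of siNT1 or of siNT2 (adjusted p 0.0514 to 0.173).

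S100P, a secreted member of the gut and placenta, had raw counts of 1, 6, 4 and 8 in controls and 11 and 17 in siPAX8. It had 3 and 2 counts in siSOX17, 0 and 3 in siDual, 2 and 0 in siMECOM, and 2 and 1 in siWT1. The ratio to controls was 3.03 in siPAX8 (95% exact interval 1.63 to 5.74), with both siPAX8 libraries above all controls. S100P entered the test through the siPAX8 libraries alone, so its interval and its p-values in comparisons with siPAX8 are description, not support. The edgeR adjusted p was 0.0198 in siPAX8, but 0.13 with DESeq2, 0.21 without siPAX8 replicate 2, 0.0807 without siNT1 replicate 1 and 0.0684 without siNT2 replicate 1. The siDual libraries lay below both siPAX8 libraries (log2 difference -2.97, SE 0.84, adjusted p 0.0167 by edgeR), a call lost without siPAX8 replicate 2 (adjusted p 0.121) or siDual replicate 1 (adjusted p 0.154). Without siDual replicate 2, which held all 3 siDual counts, the fitted value was -6.82.

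The knockdown groups were then compared directly. Between siDual and siPAX8, 2 of 10 members were higher and 1 lower in siDual, against 11% and 8.55% of all genes: S100A10 (log2 0.61, SE 0.12, adjusted p 0.00107 by edgeR) and S100A2 (log2 0.78, SE 0.14, adjusted p 0.000358) were higher, and S100P lower as given above. Without S100A8 and S100P the counts were 2 higher and 0 lower of 8. Between siDual and siSOX17, 2 were higher and 1 lower, against 7.85% and 7.82%. Leaving out S100A8 and S100P gave 2 higher and 1 lower of 8. S100A9 was higher in siDual by log2 1.47 (SE 0.24, adjusted p 0.000217) and S100A16 by 0.40 (adjusted p 0.00228), while S100A2 was lower by log2 -0.50 (adjusted p 0.0119). That S100A2 call was lost without siSOX17 replicate 1 (adjusted p 0.097) or siDual replicate 2 (adjusted p 0.206). Between siPAX8 and siSOX17, 3 members were higher in siPAX8 and 2 lower, against 17.6% and 19.8%. These were S100A9, S100A16 and S100P, and S100A2 and S100A10. Without S100P, which met the filter only in siPAX8, 2 were higher and 2 lower of 8. The S100P difference (log2 2.20, adjusted p 0.0288 by edgeR) was lost with DESeq2 (adjusted p 0.133), without siPAX8 replicate 2 (adjusted p 0.172) and without either siSOX17 library.

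siMECOM and siSOX17 were compared in the same way. In siMECOM 1 of 10 members was higher than in siSOX17 and 5 were lower, against 24.5% and 23.9% of all genes. Leaving out S100A8 and S100P gave 1 higher and 5 lower of 8. S100A14 was higher by log2 0.62 (SE 0.10, adjusted p 4.39e-05 by edgeR). S100A11 was lower by log2 -0.90 (SE 0.09, adjusted p 1.83e-07), S100A4 by -0.72, S100A2 by -0.48, S100A6 by -0.44 and S100A16 by -0.42. The S100A4 difference was lost without siSOX17 replicate 1 (adjusted p 0.0819). MECOM itself was low in both groups, at 8.76 and 16.4 CPM in siMECOM and 45.6 and 43.6 CPM in siSOX17, whereas SOX17 was low only in siSOX17.

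In siDual, 5 of the members rose by less than the sum of the single effects. The shortfall, the siDual log2 fold change less the sum of the siPAX8 and siSOX17 log2 fold changes, was below 0 for 5 of 10 members and above 0 for 0 by the edgeR test, against 13% and 12% of all genes. All 5 were well-counted members. For S100A6 the single effects were log2 1.04 and 0.87, summing to 1.91, and siDual gave 1.05, a shortfall of -0.86 (SE 0.13, adjusted p 6.38e-05). For S100A11 the sum was 1.89 and siDual gave 1.09, a shortfall of -0.80 (SE 0.12, adjusted p 6.76e-05). The shortfall was -0.70 for S100A10 (adjusted p 0.00224), -0.57 for S100A16 (adjusted p 0.000645) and -0.53 for S100A14 (adjusted p 0.00565, but 0.0598 without siPAX8 replicate 1). For S100A9 it was -0.82 (SE 0.32, adjusted p 0.064), which passed under 10 of 24 alternative settings, and for S100A4 -0.57 (adjusted p 0.098). PAX8 RNA was less reduced in siDual than in siPAX8 (log2 difference 0.54, adjusted p 0.000124 by edgeR). In siSOX17 alone PAX8 rose by log2 0.40 (adjusted p 6.94e-05). Against the sum of single effects, PAX8 in siDual differed by 0.14 (adjusted p 0.393). SOX17 RNA differed between siDual and siSOX17 by log2 0.23 (adjusted p 0.228). A lower dose of each pool and joint action cannot be told apart here.

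**Figure D3:**
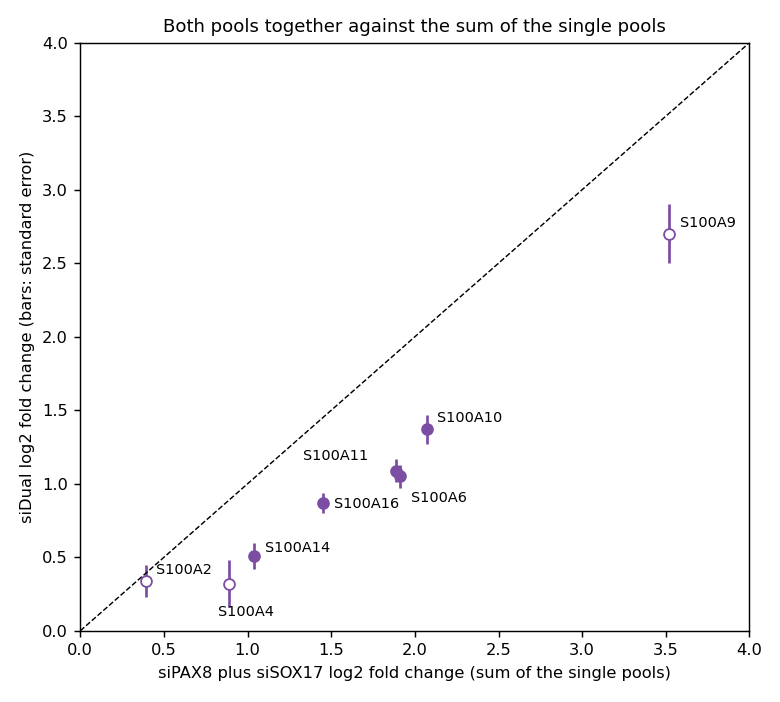
For 8 members, the siDual log2 fold change (vertical axis, bars show its standard error) against the sum of the siPAX8 and siSOX17 log2 fold changes (horizontal axis); the dashed line marks equality. Filled points are the 5 members whose shortfall passed the test. S100A6 lies at 1.91 and 1.05, and S100A2 at 0.39 and 0.34 is the member nearest the line.

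Other S100 genes were read from the same fit. Of 12 further rows, 6 were tested: S100A1, S100A3, S100A5, S100A13, S100Z and the S100P-binding gene S100PBP. S100A7, S100A7A, S100A7L2, S100A12, S100B and S100G had 27 or fewer counts over all libraries. With siSOX17, 5 of the 6 rose and 1 fell, against 27.2% and 25.5% of all genes. The 1 that fell was the binding gene S100PBP (log2 -0.30). S100A5 rose from 0.377 to 0.726 CPM in controls to 3.93 and 2.79 CPM in siSOX17 (log2 2.49, SE 0.24, adjusted p 5.11e-08 by edgeR), and S100A3 from 1.22 to 2.02 CPM to 6.87 and 5.54 CPM (log2 2.06, SE 0.17, adjusted p 6.09e-09). With siWT1, 1 rose and 4 fell, against 17.7% and 19.8%. The 1 that rose was again S100PBP (log2 0.40). S100A13 fell by 1.33 on the log2 scale (SE 0.12, adjusted p 5.74e-08), S100A3 by 1.31, S100A5 by 1.01 and S100A1 by 0.65. With siPAX8 1 rose and 2 fell, against 26.9% and 25.4%, and with siDual 1 and 2, against 28.9% and 27.3%. Those that fell were S100PBP and S100A1 in both groups. With siMECOM 3 rose and 0 fell, against 16.5% and 16.1%. S100A13 shares 24.2% of its exon length with a same-strand gene and 235 bases with S100A1, so its counts and those of S100A1 are uncertain.

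Along the chromosome 1 cluster, 12 of the 13 tested S100 genes rose with siSOX17 and 0 fell, against 27.2% and 25.5% of all genes. With siWT1 0 rose and 8 fell, against 17.7% and 19.8%. With siPAX8 8 rose and 2 fell, S100A2 and S100A1, against 26.9% and 25.4%. With siDual 9 rose and 1 fell, against 28.9% and 27.3%, and with siMECOM 8 rose and 0 fell, against 16.5% and 16.1%. These counts include members already described, and S100A1 and S100A13, whose counts are uncertain. The siPAX8 and siDual rises include S100A8, which entered the test through libraries of those groups. In siSOX17, S100A13 read 119 and 82.5 CPM against 71.9 to 85.6 CPM in controls. The values did not run smoothly with position. In siMECOM S100A10 had log2 1.42 and its neighbour S100A11 0.05, and in siPAX8 S100A2 had -0.44 between S100A3 at 0.82 and S100A16 at 0.97.

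**Figure D4:**
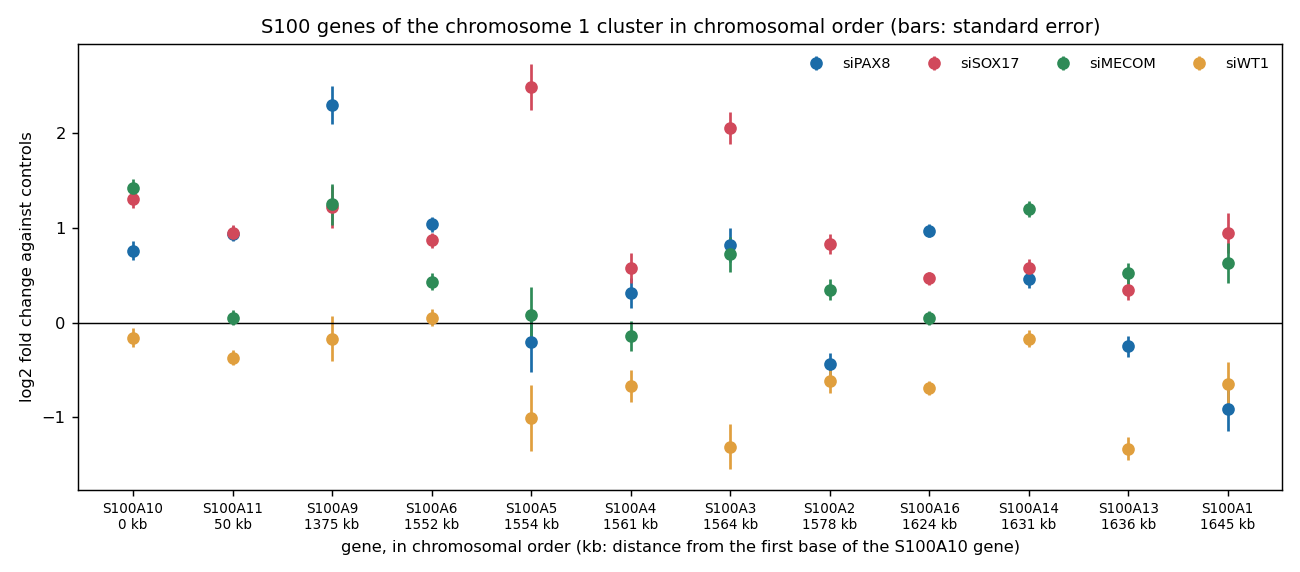
Log2 fold change against controls (vertical axis, bars show standard errors) of 12 tested S100 genes of the chromosome 1 cluster in chromosomal order, with S100A8 left out for its low counts; labels give the distance from S100A10 in kb. All siSOX17 points lie above 0, and all siWT1 points but S100A6, at 0.05, lie below 0.

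Across the 14 libraries, log2 CPM of the members correlated most between S100A11 and S100A16 (Pearson r 0.94), S100A6 and S100A11 (0.93), S100A6 and S100A9 (0.89), S100A6 and S100A16 (0.88), and S100A10 and S100A14 (0.88). S100A10 and S100A14 share the siMECOM rise. S100A11 and S100A14 had r 0.39, and S100A2 and S100P -0.34. These libraries share 7 treatments, so the points are not independent. Among 11919 protein-coding genes compared, the genes most like each abundant member were RUSC2, RRAS and CHPF2 for S100A11 (r 0.991 each), and FURIN (0.985), AC098650.1 (0.98) and TSPAN9 (0.979) for S100A16. For S100A10 they were SPDYE3 (0.969), THOC7 (0.967) and MYL7 (0.967), and for S100A14 SYT13 (0.966), FAM219B (0.954) and CNKSR1 (0.949). S100A9 was most like MPC2 (0.983), PINK1 (0.975) and WNT6 (0.968), S100A6 like PSG4 (0.981), VAMP8 (0.977) and DAB2 (0.976), S100A2 like ADD1 (0.956), KHNYN (0.95) and MINDY3 (0.942), and S100A4 like KLK7 (0.922), MYL12B (0.92) and ELK3 (0.918). The low-count members S100A8 (ATP6V1D, 0.943; MFSD1, 0.936; NLK, 0.934) and S100P (CORO2A, 0.813; HERPUD1, 0.809; SPPL3, 0.803) rest on few reads.

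Known S100 partners and receptors moved in both directions. Of 20 such genes 19 were tested, all but TLR4. With siPAX8 6 rose and 6 fell, with siSOX17 6 and 4, with siDual 10 and 5, with siMECOM 2 and 7, and with siWT1 1 and 10. Over all tested genes the shares higher and lower were 26.9% and 25.4%, 27.2% and 25.5%, 28.9% and 27.3%, 16.5% and 16.1%, and 17.7% and 19.8% in the same order. The list's median log2 fold change was -0.06, 0.09, 0.27, -0.12 and -0.23 in these groups. The highest in siPAX8 were TRPV6, a calcium channel bound by S100A10 with ANXA2, and ANXA1, the S100A11 partner (log2 1.29, SE 0.08, adjusted p 7.3e-11 by edgeR). TRPV6 was seen in few reads, at 0.0236 to 0.215 CPM in controls and 0.34 and 0.468 CPM in siPAX8 (log2 1.85, SE 0.50). The lowest there were HLTF, a chromatin helicase (log2 -1.05), and PPFIBP1, a liprin that binds S100A4 (log2 -0.94). In siSOX17 AHNAK, a scaffold of the S100A10 and ANXA2 complex, rose by log2 1.99 (SE 0.11, adjusted p 4.08e-11) and MYH9, the non-muscle myosin bound by S100A4, by 1.00. The receptor AGER fell by 0.77 and HLTF by 0.61.

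In siDual TRPV6 rose by log2 1.35 (adjusted p 0.0477, its libraries not both above the controls) and ANXA1 and AHNAK by 1.1 each, while HLTF fell by 0.86 and PPFIBP1 by 0.82. In siMECOM ANXA1 rose by log2 1.63 (SE 0.08, adjusted p 1.08e-11 by edgeR), although S100A11 had a log2 value of 0.05 there. ANXA2 rose by 0.72, and EZR, a cytoskeletal linker, and ANXA6 each fell by 0.62. In siWT1 the adhesion receptor MCAM had a log2 fold change of 0.66 (adjusted p 1.74e-05 by edgeR), but it also differed between the control pools, by 0.70 (adjusted p 0.00606). NPTN, a receptor reported for S100A8 and S100A9, fell by 1.38 and MYH9 by 1.14.

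Squamous differentiation genes, which share the epidermal setting of several S100 genes, were read as a second list of 15, of which 9 were tested. Among the untested genes, SPRR1A, SPRR1B, SPRR3 and SERPINB3 were at 0 CPM in every library. IVL reached at most 0.0532 CPM and DSG3 at most 0.022 CPM, so the counts below do not cover these untested genes. With siPAX8 8 rose and 0 fell (median log2 2.26), with siSOX17 6 rose and 1 fell (0.98), and with siDual 8 rose and 0 fell (1.39). Of all genes 26.9% rose and 25.4% fell in siPAX8, 27.2% and 25.5% in siSOX17, and 28.9% and 27.3% in siDual. With siMECOM 3 rose and 5 fell (-0.46), and with siWT1 0 rose and 3 fell (-0.44), against 16.5% and 16.1%, and 17.7% and 19.8%, of all genes. The keratins KRT6A and KRT16 rose by log2 3.51 and 3.29 in siPAX8, KRT17 and KRT14 by 2.59 and 2.36 in siSOX17, and KRT16 and KRT17 by 3.51 and 2.89 in siDual. In siSOX17, where S100A9 rose, KRT6A read 0.696 and 1.72 CPM against 6.86 and 6.0 CPM in siNT1 and 2.04 and 2.66 CPM in siNT2 (log2 -1.69). KRT6A also differed between the control pools, by log2 1.45 (adjusted p 0.0174 by edgeR). In siMECOM KRT6A rose by 3.86 and TP63, the basal squamous transcription factor, by 1.48, while KRT16 fell by 1.29 and KRT14 by 1.23. In siWT1 SFN fell by 0.79, and KRT6B, at 0.132 to 0.401 CPM in controls and 0 and 0.0383 CPM in siWT1, had a fitted log2 value of -3.33 (adjusted p 0.00479) that rests on few reads.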

How the data were processed

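RNA of 14 OVCAR4 libraries was sequenced by the BGI-seq protocol, per the labels' protocols. The authors deposited 1 table of raw read counts per gene, and the submitters' processing notes name STAR 2.5.1b, featureCounts 1.6.3 and hg38. The strand setting and annotation release are not given in the sources used here. Of 58219 gene identifiers, 57881 matched GENCODE 29, from which symbols and gene types were taken. Exon lengths and gene positions came from the deposited table itself. The members and gene lists were chosen with earlier results of these data known.

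Counts were filtered with filterByExpr (at least 10 counts, 15 in total), which kept 21032 genes, TMM-scaled and fitted with edgeR 4.0.16 (quasi-likelihood, R 4.3.3) as 7 groups of 2 libraries, with 7 residual degrees of freedom and a biological coefficient of variation of 7.57%. Knockdowns were contrasted with the mean of siNT1 and siNT2, giving 11 comparisons with 6 others. Standard errors were obtained by dividing each log2 fold change by the root of its F statistic. P-values were adjusted over all tested genes (Benjamini-Hochberg, threshold 0.05). Replicates differed beyond counting noise in every group (chi-square per gene 10.69 to 20.65). The script was tested on simulated data.

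The text names the 10 members, a list of 12 other rows with S100 symbols, and the targets. Of the 19 S100 rows in the cluster span, 17 are named. From the partner and squamous lists it names at most 2 called genes in each direction and knockdown. Per member it gives the 3 protein-coding genes with the highest Pearson r of log2 CPM (prior count 2). Untested genes of the squamous list are also named. Alternatives were DESeq2 1.42.0, its size factors, upper-quartile factors, no filter, at least 1 CPM in 2 libraries, no mitochondrial genes, the replicate number as a block, each control pool alone, only the groups compared, and leaving out each library. Intervals of low counts are exact at 95%.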

Additional observations from a re-analysis of the deposited data

Results flagged for a closer look

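Members whose response differed between knockdown groups by a direct edgeR test of the difference, in 2 libraries a group, are listed here with their log2 differences. They are the differences already called in the comparisons of knockdown groups, and comparisons that share a group are not independent.

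Between siPAX8 and siSOX17, S100A2 differed by -1.28, with 5.54 and 4.68 CPM in siPAX8 and 12.9 and 11.8 CPM in siSOX17. S100A9 differed by 1.07, S100A16 by 0.5 and S100P by 2.2, all higher in siPAX8, and S100A10 by -0.55. The S100P value rests on 28 counts in siPAX8 and 5 in siSOX17. S100P entered the test through the siPAX8 libraries alone, so its differences from siPAX8 are listed as description, not support.

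Between siMECOM and siSOX17, S100A14 differed by 0.62, with 409 and 415 CPM in siMECOM and 277 and 257 CPM in siSOX17. S100A11 differed by -0.9, S100A4 by -0.72, S100A2 by -0.48, S100A6 by -0.44 and S100A16 by -0.42.

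Between siDual and siPAX8, S100A2 differed by 0.78, S100A10 by 0.61 and S100P by -2.97, the last from 3 counts against 28. Between siDual and siSOX17, S100A9 differed by 1.47, S100A2 by -0.5 and S100A16 by 0.4.

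The siDual response fell short of the sum of the single responses by -0.86 for S100A6, -0.8 for S100A11, -0.7 for S100A10, -0.57 for S100A16 and -0.53 for S100A14.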

How the results depend on the processing

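Among the recomputed values of members, 1655 kept their direction and their side of the threshold, 28 lost and 28 gained a call, and 9 changed sign, each of them an uncalled value with 1 library left out. These were S100A4 in siPAX8 (log2 -0.007 to 0.569 over the fits that leave out a library), S100P in siSOX17 (-0.897 to 0.199), S100A8 and S100A11 in siMECOM (-2.963 to 1.113 and -0.008 to 0.095), and S100A9 and S100A10 in siWT1 (-0.64 to 0.18 and -0.348 to 0.01). The cause was not tested. These tallies cover values against controls, values called in other comparisons, and the S100A4 and S100A9 shortfalls. Other uncalled differences were not tallied, so calls gained there are not counted. Over all settings the number of members called was 7 to 10 in siPAX8, 7 to 9 in siSOX17 and in siDual, 4 to 5 in siMECOM, 3 to 5 in siWT1 and 0 between the control pools. Levels moved by factors of 0.916 to 1.11 with other scalings. Between the control pools 51 genes passed as higher and 12 as lower, but 107 and 46 with DESeq2 and 163 and 69 without the filter. With S100A8 at 76 and S100P at 60 counts in all, depth limits both.

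Replicate numbers were not taken to pair the libraries: deviations of same-numbered libraries correlated by -0.1 to 0.496 over 21 pairs of groups, above 0.1 in 13. With the replicate block, 10 members were called in siPAX8, 9 in siSOX17, 9 in siDual, 5 in siMECOM, 4 in siWT1 and 7 in the test against the sum of single effects. The added calls against controls were S100A4 in siPAX8 (adjusted p 0.0217, edgeR) and siDual (0.0162), and S100A8 in siSOX17 (0.0186). In the test against the sum, the shortfalls of S100A9 (adjusted p 0.000215, edgeR) and S100A4 (0.0127) were added.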
